A study of Mus musculus with 2 samples.

Results

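Expression of 34 genes of fatty acid oxidation and lipid droplets was examined by scRNAseq in a control and an ischemic mouse kidney. The genes were chosen by symbol, and all 34 of them were found among the 32285 genes listed. Each kidney was from a male wildtype C57BL/6J mouse aged 19 weeks. The labels do not say outright whether both came from the same mouse. The control kidney was contralateral and uninjured, so it came from an operated animal rather than an unoperated one. The ischemic kidney had 27 min of ischemia followed by 24 h of reperfusion. There was 1 library per condition, made with a 3' protocol that counts molecules with unique molecular identifiers (UMIs).

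The proximal tubule (PT) reabsorbs most of the filtered solute and is known to draw its energy largely from fatty acids. A fatty acid is taken up, activated to acyl-CoA, exchanged onto carnitine to enter the mitochondrion and shortened by repeated rounds of beta-oxidation, whose electrons pass through the electron transfer flavoprotein to the respiratory chain. Peroxisomes shorten the very long chains. The nuclear receptor encoded by Ppara and the coactivator encoded by Ppargc1a switch on most of these genes, while fatty acids that are not oxidized can be stored as triglyceride in droplets coated by perilipins.

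After the filters on cells, 12586 control and 13116 ischemia cells were kept, with 124679362 and 128733541 UMIs and medians of 3839 and 2138.5 UMIs per cell. Cells were clustered without the members and 91 related lipid genes, and 15 of 18 clusters took 1 of 12 names from marker genes. PT-like cells were clusters 1, 2 and 5, with 3859 control and 2795 ischemia cells, 30.7% and 21.3% of the cells kept. In these cells all 10 PT markers were detected in both libraries. The sum of the PT markers was 22305 CPM (UMIs scaled to a common total) in the control and 17112 CPM in the ischemic kidney, and 8 of the 10 were lower by 1.5-fold or more, among them Lrp2, the endocytic receptor megalin, at a ratio of 0.466, while the sulfate transporter gene Slc13a1 was higher, at 1.65. The injury gene Havcr1, which encodes kidney injury molecule, was at 7.16 CPM in control against 417 CPM after ischemia, and Lcn2, which encodes NGAL, at 6.50 and 41.3 CPM. Mitochondrial transcripts made up 26.5% of the UMIs of PT-like cells in control and 22.5% in ischemia. Of the cell barcodes, 88 were present in both libraries, and 21 PT-like cells carried 1 of those kept in both. Of the markers of other cell types, the sum of the TAL list in PT-like cells was at 317 and 187 CPM, of the DCT-CNT list at 82.7 and 16.1 CPM and of the macrophage list at 9.29 and 18.9 CPM, and the part of such RNA in the results was not tested.

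In PT-like cells of the ischemic kidney, the fatty acid oxidation genes as a whole made up a smaller share of the UMIs. The droplet coat gene Plin2 made up a larger share. Summed over the 34 members, the level was 8009 CPM in control against 6351 CPM after ischemia, a ratio of 0.793 with a 95% interval of 0.790 to 0.796. All intervals cover counting error only, and since each condition was 1 kidney, the conditions could not be tested against each other. The ischemia value was below control for 25 members and above it for 9. A fold of at least 1.5, used as the criterion among genes with at least 50 UMIs, was reached downward by 5 members (Acsl1, Acaa2, Ehhadh, Acsm2 and Ppara), where 9.09% of the 13529 genes measured reached it. Upward it was reached by 2 members (Pdk4 and Plin2), where 16% of genes did. The median log2 ratio was -0.16 over the members and 0.11 over all genes. Relative to this median of all genes, the sum had a ratio of 0.734, 8 members were lower by 1.5-fold or more with Ppargc1a, Acsm1 and Acsm3 added, where 11.9% of genes were, 2 were higher, where 12% were, and 4 members (Acadl, Cd36, Pdk4 and Plin2) stayed above control. Loss of PT-like cells rich in these transcripts and a lower share within each cell cannot be told apart here. CPM is a share and does not give the amount per cell. The members had 573979 UMIs in the 3859 control cells and 431550 UMIs in the 2795 ischemia cells. The ischemia cells were deeper, with a median of 17869 UMIs against 14295 in control.

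**Figure D1:**
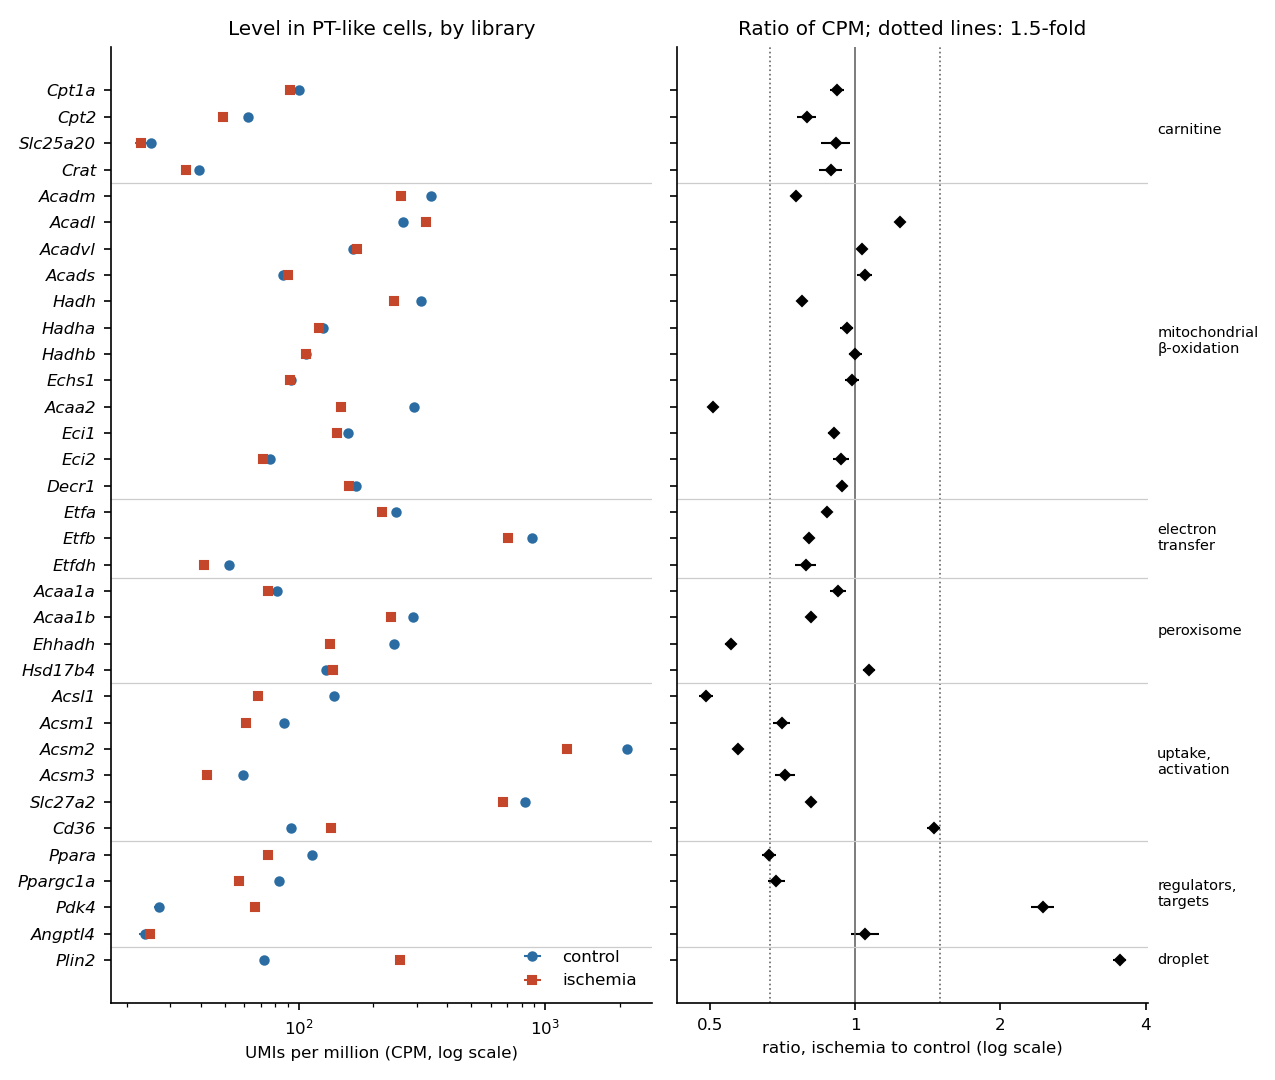
The left panel plots the level of each of the 34 members in PT-like cells on a log axis in CPM, with circles for the control and squares for the ischemia library and bars for 95% counting intervals, and the right panel the ratio of ischemia to control. Plin2 at 3.54 and Pdk4 at 2.45 lie to the right of the upper dotted line at 1.5-fold, while Acsl1, Acaa2, Ehhadh, Acsm2 and Ppara lie to the left of the lower one.

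Genes of mitochondrial entry differed little. Cpt1a, which makes the acylcarnitine at the outer membrane and sets the rate of the pathway, was at 100.0 CPM in control against 91.6 CPM after ischemia. Cpt2, which turns acylcarnitine back to acyl-CoA inside, was at 62.1 and 49.2 CPM, the lowest ratio of the 4 carnitine genes at 0.793. The carrier gene Slc25a20 was at 24.96 and 22.75 CPM and the carnitine acetyltransferase gene Crat at 39.1 and 34.8 CPM. None of these 4 genes reached 1.5-fold, and all 4 were below control.

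Among the 12 genes of the mitochondrial beta-oxidation spiral, Acaa2 stood apart from the other members. Acaa2, the thiolase that releases acetyl-CoA at the last step, was at 292 CPM in control against 148 CPM after ischemia, a ratio of 0.507 (95% interval 0.495 to 0.519). The acyl-CoA dehydrogenases, which catalyse the first step, did not share 1 direction. Acadm, for medium chains, was at 344 CPM in control against 259 CPM after ischemia, whereas Acadl, for long chains, was at 264 and 327 CPM, a ratio of 1.24 (95% interval 1.22 to 1.26). Acadvl, for very long chains, was at 166 and 171 CPM and Acads, for short chains, at 86.3 and 90.4 CPM, both within 1.05-fold of control. Hadh, a dehydrogenase of the third step, was at 312 and 242 CPM, a ratio of 0.775.

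The trifunctional protein, which carries out the later steps on long chains, was nearly level in PT-like cells. Its alpha subunit gene Hadha was at 125 CPM in control against 120 CPM after ischemia, and its beta subunit gene Hadhb at 107 CPM in both. These genes lie head to head on opposite strands of chromosome 5 (GRCm38), Hadha at chr5:30118304-30155162 on the minus strand and Hadhb at chr5:30155248-30184593 on the plus strand. The 85 bases between the annotated genes, chr5:30155163-30155247, are shown because both start sites face this stretch, read on the strand of Hadhb from RefSeq's promoter table. The capitals mark the letters GGGCGG, the GC box, which is found on either strand in 35.7% of all promoter windows.
Hadha–Hadhb: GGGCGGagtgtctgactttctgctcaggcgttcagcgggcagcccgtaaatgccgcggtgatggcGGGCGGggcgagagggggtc
The stretch has 69.4% G and C and holds 2 such boxes. The remaining genes of the spiral were also close to control. The hydratase gene Echs1 was at 93.01 and 91.64 CPM. Of the auxiliary enzymes that handle unsaturated chains, Eci1 was at 158 and 142 CPM, Eci2 at 76.1 and 71.1 CPM and Decr1 at 170 and 160 CPM.

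All 3 genes of electron transfer were below control without reaching 1.5-fold. The flavoprotein subunit genes Etfa and Etfb were at 248 and 880 CPM in control and at 217 and 705 CPM in ischemia. Etfdh, the dehydrogenase that hands the electrons to ubiquinone, was at 52.1 and 41.1 CPM, a ratio of 0.790.

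Of the 4 peroxisomal genes, the bifunctional enzyme gene Ehhadh differed most, with 242 CPM in control against 134 CPM after ischemia, a ratio of 0.552 (95% interval 0.538 to 0.566). Hsd17b4, which encodes the other bifunctional enzyme of the peroxisome, was at 128 and 137 CPM. The thiolase genes Acaa1a and Acaa1b were at 81.6 and 291 CPM in control and at 75.1 and 235 CPM in ischemia. Acaa1a and Acaa1b are close copies that lie near each other on chromosome 9, at chr9:119339676-119350299 and chr9:119148023-119157093, so the split of reads between them is uncertain.

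The uptake and activation genes had the lowest summed ratio of the roles with more than 1 gene, 0.657, from 3347 CPM in control to 2200 CPM in ischemia. That rested on Acsm2, since without it the ratio was 0.811, above the 0.782 of the peroxisomal genes. Acsl1, which activates long chains, was at 139 CPM in control against 67.9 CPM after ischemia, a ratio of 0.490 (95% interval 0.473 to 0.508) and the lowest of all members. Acsm2, which activates medium chains, held more UMIs than any other member and was at 2140 and 1222 CPM, a ratio of 0.571. Acsm1 and Acsm3, of the same family, were at 86.8 and 58.9 CPM in control and at 61.1 and 42.2 CPM in ischemia. Acsm2, Acsm1 and Acsm3 lie together on chromosome 7, at chr7:119554340-119600690, chr7:119607026-119662515 and chr7:119760923-119787513, and reads could be shared among these related genes. Slc27a2, a transporter that also activates very long chains, was at 830 and 672 CPM. Cd36, the fatty acid translocase, was the exception with 92.5 CPM in control against 134 CPM after ischemia, a ratio of 1.45 that was just short of the criterion. Without the 3 members with the most UMIs, Acsm2, Etfb and Slc27a2, the ratio of the members' sum was 0.902.

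Both regulators were below control, while their targets went different ways. Ppara was at 113 CPM in control against 74.6 CPM after ischemia, a ratio of 0.663 that lay just past 1.5-fold, and Ppargc1a was at 83.1 and 57.0 CPM, a ratio of 0.685 that lay just short of it. Pdk4, the kinase that turns off pyruvate dehydrogenase when fatty acids are burned, was at 27.0 CPM in control against 66.0 CPM after ischemia, a ratio of 2.45 (95% interval 2.32 to 2.58). Angptl4, a secreted inhibitor of lipoprotein lipase, was at 23.6 and 24.7 CPM, a difference within its counting interval of 0.979 to 1.12.

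Plin2, the perilipin that coats droplets outside fat tissue, had the highest ratio of the members. It was at 72.3 CPM in control against 256 CPM after ischemia, a ratio of 3.54 (95% interval 3.43 to 3.65), above 97.7% of all genes in PT-like cells. With every cell thinned to 2000 UMIs, 469 of 3566 PT-like cells of the control (13.2%, exact 95% interval 12.1% to 14.3%) and 876 of 2628 of the ischemic kidney (33.3%, 31.5% to 35.2%) had a Plin2 UMI. Before thinning the shares were 54.4% and 76.1%, at median depths of 14295 and 17869 UMIs. In TAL-like cells, of the thick ascending limb, 2.68% and 4.93% of thinned cells had 1, at median depths of 20064 and 24707 UMIs. Thinning left out 293 control and 167 ischemia PT-like cells and 8 and 18 TAL-like cells.

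**Figure D2:**
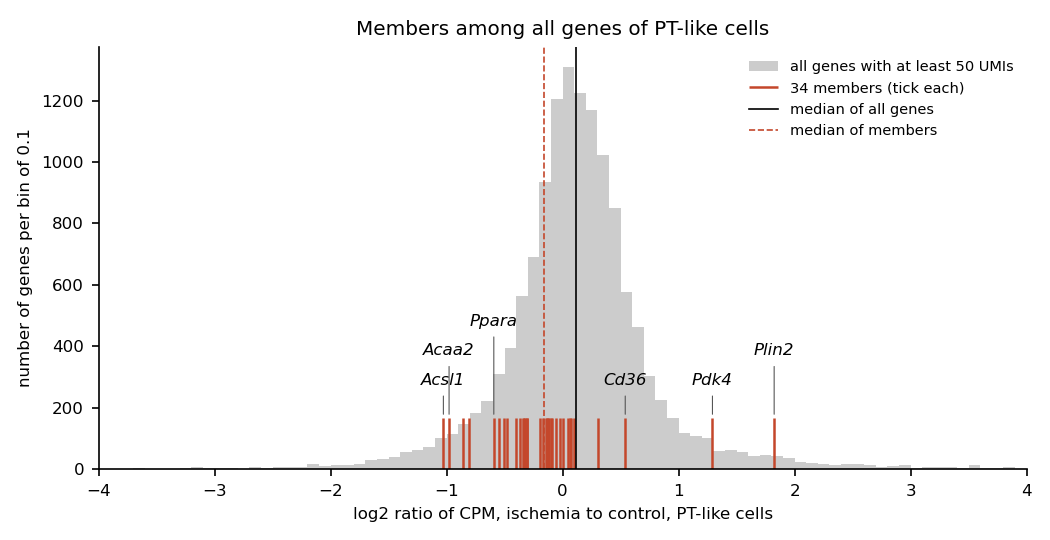
The histogram counts genes of PT-like cells with at least 50 UMIs by the log2 ratio of ischemia to control, within the range of the axis, and the ticks are the 34 members. The median of the members, -0.16, lies to the left of the median of all genes, 0.11, and Plin2 and Pdk4 lie in the right tail.

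The 3 PT-like clusters differed in the level of the members. By the segment markers, cluster 5 scored highest on the S3 list, of the last PT segment, and clusters 1 and 2 on the list of the earlier S1 and S2 segments, cluster 1 by a small margin. The marker genes of a cluster help to define it, so these levels are a description. The sum of the members was highest in cluster 5, at 10064 CPM in control against 8278 CPM after ischemia, and lowest in cluster 2, at 6388 and 4779 CPM. Cluster 1 was at 8577 and 7262 CPM. Among the clusters, 4 members in cluster 1, 7 in cluster 2 and 5 in cluster 5 were lower by 1.5-fold or more, where 6.52%, 8.52% and 9.77% of genes were. Upward the criterion was reached by 2, 2 and 3 members, where 14.1%, 16.9% and 15% of genes were. Acaa2, Ehhadh, Acsl1 and Acsm2 were lower, and Pdk4 and Plin2 higher, by at least 1.5-fold in every one of the 3 clusters.

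Some members were uneven between the PT-like clusters. Cd36 was at 200.3 CPM in cluster 5 and 16.3 CPM in cluster 2 of the control kidney, and at 309 and 18.01 CPM in the ischemic kidney, where its ratio in cluster 5 reached 1.54. Acsm3 was at 118 CPM in cluster 5 and 6.19 CPM in cluster 2 of the control. Between clusters 1 and 2, which both scored highest on the S1 and S2 list, Ppara had the opposite order to Acsm3. In control, Ppara was at 34.1 CPM in cluster 1 and 147 CPM in cluster 2, at median depths of 7074 and 22766 UMIs. Its ratio was 0.536 in cluster 2 and 0.934 in cluster 1, and Ppargc1a was lower by at least 1.5-fold in clusters 2 and 5 only, at 0.666 and 0.649, against 0.674 in cluster 1. Plin2 went from 85.8 to 369 CPM in cluster 5, a ratio of 4.30, from 83.7 to 310 CPM in cluster 1 and from 58.4 to 163 CPM in cluster 2.

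To relate the members to injury within 1 kidney, PT-like cells of the ischemic kidney were split by Havcr1 after thinning to 2000 UMIs. A Havcr1 UMI was found in 897 of 2628 cells (34.1%) there and in 42 of 3566 (1.18%) in control, against 7.71% and 0.412% of TAL-like cells. In TAL-like cells of the ischemic kidney Havcr1 was at 33.3 CPM, and whether this was free RNA was not tested. Before thinning the PT-like shares were 67.9% and 4.72%. Many ischemia cells without a Havcr1 UMI after thinning therefore had 1 before, so the groups were mixed. A close level in both does not show that a member is unrelated to Havcr1. Pooled over the clusters, the summed level of the members in cells with and without a Havcr1 UMI was close, at 6401 CPM (6285 to 6520) and 6338 CPM (6255 to 6423). Only Acaa2 was lower by 1.5-fold or more in the cells with a Havcr1 UMI, at 116 against 174 CPM, where 5.39% of 7804 genes were. Higher by 1.5-fold or more were 4 members, Cd36, Pdk4, Acsm3 and Plin2, where 6.25% of genes were. Cd36 was at 215 against 87.5 CPM and Plin2 at 338 against 215 CPM.

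The cells with a Havcr1 UMI were drawn unevenly from the clusters, since 31.0% of them and 15.4% of the other cells were in cluster 5. Within clusters 1, 2 and 5 taken singly, the ratios were 2.17, 2.28 and 1.66 for Cd36 and 1.48, 1.39 and 1.61 for Plin2. Pdk4 was at a ratio of 2.36 in cluster 2 alone, against 1.25 and 0.933 in clusters 1 and 5, and Acsm3 was at 1.65, 1.75 and 1.06 (0.707 to 1.58 in cluster 5). The ratio of Acaa2 was 0.680, 0.718 and 0.603. Within single clusters the summed level of the members in cells with a Havcr1 UMI was 0.993 (95% interval 0.957 to 1.03), 0.887 (0.849 to 0.927) and 0.927 (0.890 to 0.966) of that in cells without, so it was lower in clusters 2 and 5. In the control kidney the 42 cells with a Havcr1 UMI had 37 UMIs of Plin2, or 440 CPM against 76.5 CPM in the other cells (ratio 5.76, 4.011 to 8.041). There, 2 members were lower and 6 higher by 1.5-fold or more, where 25.2% and 28.8% of genes were, since 42 cells give few UMIs.

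**Figure D3:**
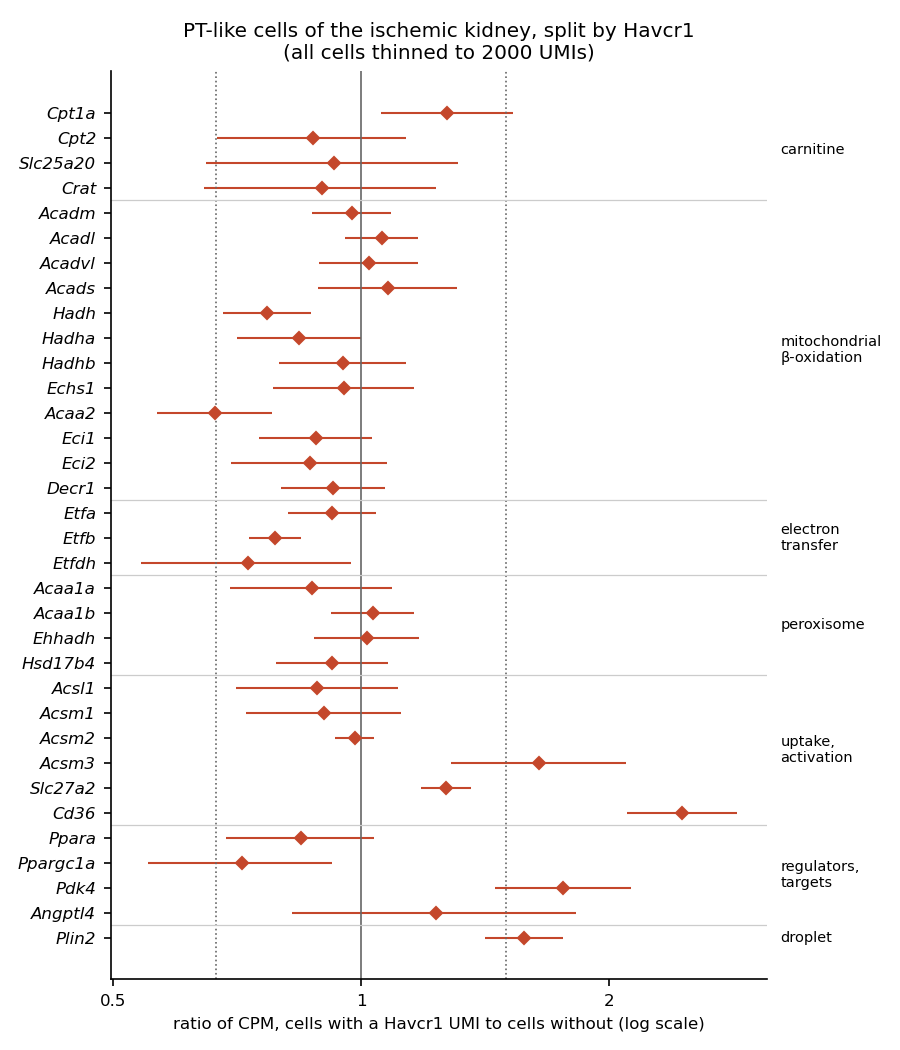
Each diamond is the ratio of a member's CPM in PT-like cells of the ischemic kidney with a Havcr1 UMI to that in cells without, on a log axis, and bars are 95% counting intervals. Cd36, at 2.45, has the highest ratio, and Acaa2, at 0.665, the lowest.

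Most members were not restricted to PT-like cells. Over all kept cells together, 8 members were lower and 2 higher by 1.5-fold or more, where 9.51% and 18.5% of genes were. PT-like cells held 57.5% of all UMIs in control and 52.8% in ischemia, and a median of 68.4% of a member's UMIs in both libraries, with 28 members above the overall share in control and 33 in ischemia. The share was highest for Acsm1 in control, at 89.2%, and for Slc27a2 in ischemia, at 88.8%, and lowest for Ppargc1a in both, at 33.6% and 43.8%. PT-like cells had the highest CPM of the 12 types in both libraries for 18 members. Intercalated-like cells (58 control and 45 ischemia cells), which secrete acid or base in the collecting duct, had the highest for Hadha, Hadhb and Ppargc1a in both. DCT-CNT-like cells, of the distal convoluted and connecting tubule, had it for Cpt1a and Echs1, and macrophage-like cells for Plin2. For Cd36 the highest CPM was in EC-like (endothelial) cells in control and in macrophage-like cells in ischemia. Among CD-PC-like cells, described below, 95 control and 83 ischemia cells were named intercalated at a finer resolution. There, Ppargc1a was at 263 CPM in control, below the 391 CPM of TAL-like cells. In ischemia it was at 194 CPM, above the 178 CPM of DCT-CNT-like cells. The control ranking for Ppargc1a therefore did not hold for those cells. The rankings of Hadha and Hadhb were not firm either. In control, Hadha was at 216.3 CPM in intercalated-like and 215.9 CPM in TAL-like cells. In ischemia, Hadhb was at 122.9 CPM in intercalated-like and 112.1 CPM in podocyte-like cells.

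Free RNA of PT-like cells was read in the other types from 6 genes that are specific to them, such as the transporter gene Slc34a1. In control their sum was at 6.17% to 37.6% of the PT-like level, lowest in intercalated-like and highest in T cell-like cells, and in ischemia at 3.67% to 24.4%. For Acaa1b, Acsm1, Acsm2 and Slc27a2, the level in TAL-like cells was 1.21, 1.10, 1.21 and 1.05 times what this share gives in control and 0.983, 0.975, 1.26 and 1.01 times in ischemia, so these 4 genes were near the background of free RNA there. In the other types the multiples of these 4 genes ran from 0.344 to 1.56. For Hadha it was 23.6 and 19.9 times, and for Ppargc1a 64.2 and 33.8 times.

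**Figure D4:**
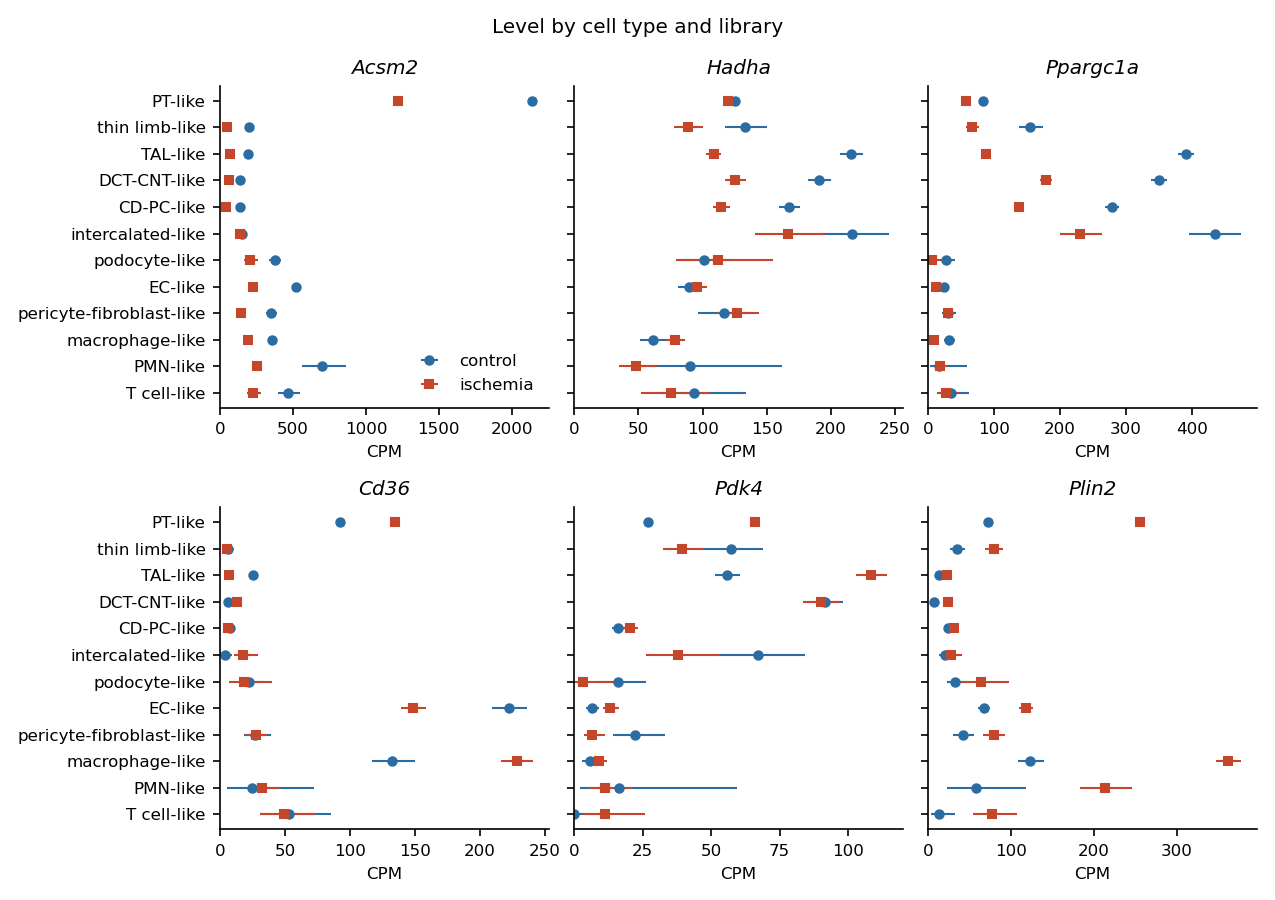
Each panel plots 1 member in CPM from 0 for the 12 cell types, with circles for the control and squares for the ischemia library and bars for 95% counting intervals. Acsm2 is far higher in PT-like cells than elsewhere, Ppargc1a is higher in the distal tubule types than in PT-like cells, and Plin2 is highest in macrophage-like and PT-like cells of the ischemic kidney.

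In TAL-like cells, which resorb salt and are rich in mitochondria, more members were lower than in PT-like cells. Summed over the members, the level was 3803 CPM in control (493 cells) and 2037 CPM in ischemia (485 cells), a ratio of 0.536 (95% interval 0.527 to 0.544). Of the 34 members, 25 were lower by 1.5-fold or more, where 15.8% of genes were, and 3 were higher, where 17.8% were. Ppargc1a was at 391 CPM in control against 87.5 CPM after ischemia, a ratio of 0.224 and the lowest in these cells. Cpt1a was at 155 and 63.8 CPM, Hadhb at 182 and 69.1 CPM, Acadvl at 185 and 73.6 CPM and Acsl1 at 209 and 80.6 CPM. Etfb and Etfa, which with Ppargc1a had the highest CPM in control, were at 449 and 255 CPM and at 204 and 105 CPM in ischemia. The 6 members not lower by 1.5-fold nor higher were Cpt2, Slc25a20, Eci2, Acaa1a, Hsd17b4 and Acadl, the last of them at 230 CPM in control against 311 CPM after ischemia.

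The members higher in TAL-like cells were Angptl4, from 14.8 to 41.3 CPM, Pdk4, from 55.8 to 108 CPM, and Plin2, from 13.0 to 23.2 CPM. With the free RNA share of PT-like cells taken off both libraries, 21 of 31 members were lower and 3 higher by 1.5-fold or more, where 14.5% and 21% of genes were, and 3 members had nothing left in 1 library or both. The sum of the 6 TAL markers moved in the same direction, from 22024 to 9184 CPM, a ratio of 0.417, Lcn2 was at 420 CPM in control against 5304 CPM after ischemia, and mitochondrial transcripts made up 31.9% and 25.8% of the UMIs. Their part in the result was not tested. Nor was the difference between TAL-like and PT-like cells in these ratios.

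In DCT-CNT-like cells, too, most members were lower. The members' sum was at 3754 CPM in control against 2348 CPM after ischemia, and 21 members were lower by 1.5-fold or more, where 11.3% of genes were, and 3 higher, where 16% were. Ppargc1a was at 350 and 178 CPM, Cpt1a at 253 and 142 CPM and Etfb, which had the highest CPM there, at 482 and 235 CPM. Higher were Angptl4, from 7.10 to 28.0 CPM, Plin2, from 7.10 to 24.3 CPM, and Cd36, from 5.88 to 12.5 CPM. Plin2 was there at 1.49 and 1.64 times and Cd36 at 0.966 and 1.61 times the free RNA share. The sum of the 6 DCT-CNT markers was at a ratio of 0.411. After the free RNA share was taken off, 16 of 28 members were lower and 2 higher by 1.5-fold or more, where 11.1% and 17.6% of genes were.

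In CD-PC-like cells, named from markers of the principal cells of the collecting duct, 16 members were lower by 1.5-fold or more and 1 higher, where 11.5% and 12.7% of genes were. Ppargc1a was at 279 and 138 CPM, Etfb at 386 and 307 CPM and Etfa at 228 and 131 CPM. Angptl4 was the member higher there, from 2.03 to 3.76 CPM. Without the free RNA share the counts were 10 lower and 2 higher of 30, where 9.62% and 14.6% of genes were. The sum of the CD-PC markers was at a ratio of 0.637 and mitochondrial transcripts made up 21.5% and 14.9% of the UMIs, whose part in the result was not tested. At a finer resolution of 0.6, 21.2% of these cells (95 control and 83 ischemia cells) fell in a cluster named intercalated, led by Aqp6 and with Slc4a1, and the rest in a CD-PC cluster. In the latter 15 members were lower and 1 higher, where 12.3% and 12.6% of genes were, and in the former 10 of 27 were lower and 3 higher, where 9.25% and 16% of genes were. In the intercalated-like cells, which with 58 and 45 cells left out those just described and were led by Slc26a4, 11 of the 24 members with enough UMIs were lower and none reached 1.5-fold upward, where 13.6% and 13.7% of genes did. Ppargc1a was there at 434 and 230.2 CPM, Etfb at 393 and 208 CPM and Etfa at 376 and 183 CPM. Without the free RNA share, 14 of 23 were lower and 0 higher, where 17.2% and 13.5% of genes were. In thin limb-like cells 9 of 31 members were lower and 1, Plin2, higher, where 15.1% and 12.1% of genes were. Without the free RNA share, 5 of 27 were lower and 2 higher there, and the shares of all genes were not computed at this step.

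**Figure D5:**
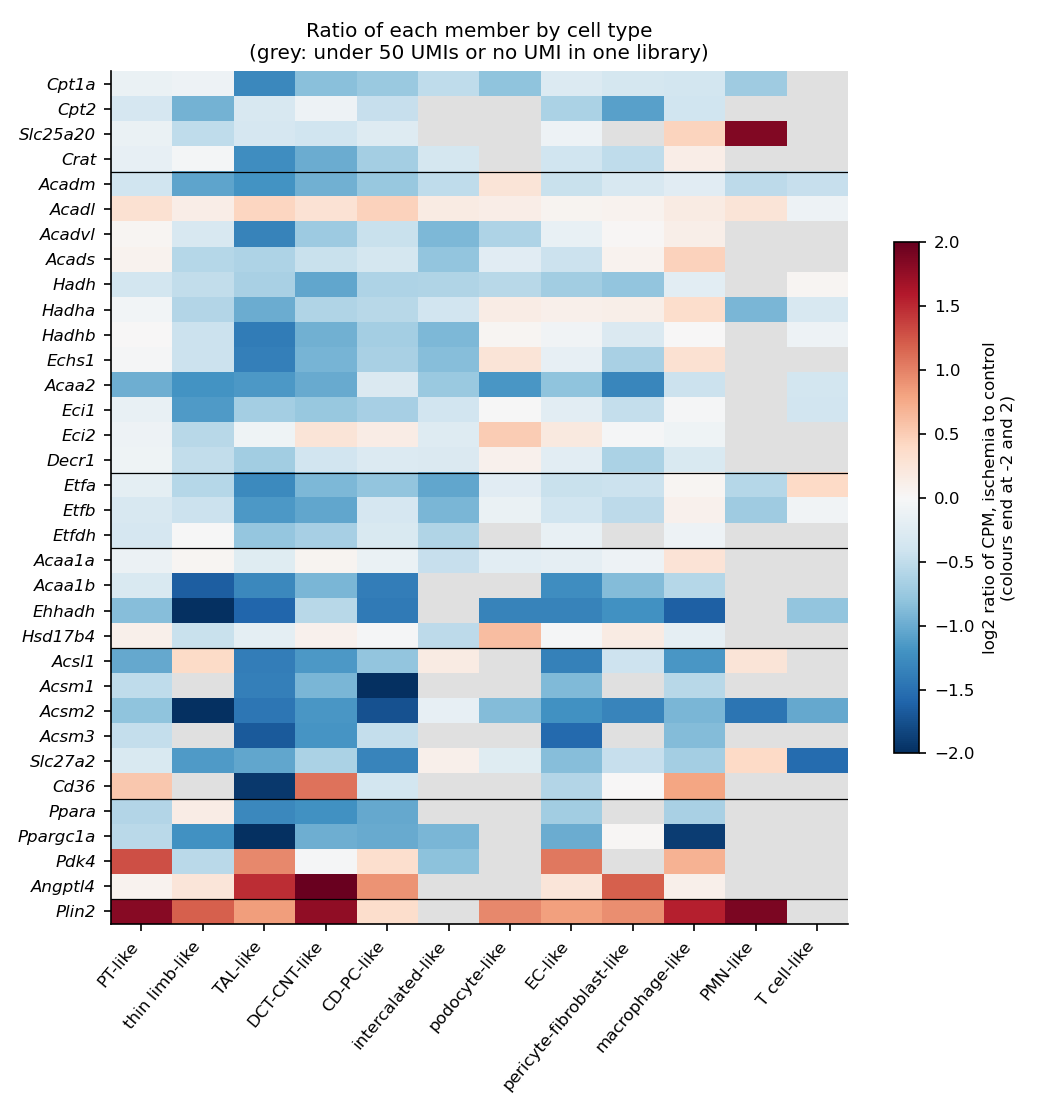
The heat map shows the log2 ratio of ischemia to control for each member (rows, grouped by role) in 12 cell types (columns), blue for lower and red for higher, with colours ending at -2 and 2. The TAL-like column is blue for most members, the Acaa2 row is blue in most columns, and the Plin2 row is red in all 10 columns with enough UMIs.

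As measured, a few members had 1 direction in most cell types, though not in all of them once free RNA was taken off. Plin2 was above control in all 10 types with at least 50 UMIs, and past 1.5-fold in 9 of them, all but CD-PC-like cells. With the free RNA share taken off, its ratio was 0.977 in podocyte-like, 1.12 in CD-PC-like, 1.41 in pericyte-fibroblast-like and 1.49 in EC-like cells. It stayed past 1.5-fold in thin limb-like, macrophage-like and DCT-CNT-like cells, at 2.33, 2.99 and 4.02. So it did in PMN-like cells, at 4.25 from 7 control UMIs, and in TAL-like cells only just, at 1.50045. The DCT-CNT-like value is uncertain, since only 2.35 CPM of Plin2 was left in control, against 109 CPM in macrophage-like cells. Acaa2 was lower by 1.5-fold or more in 8 of 11 types, the exceptions being CD-PC-like, macrophage-like and T cell-like cells. Without the free RNA share its ratio was 0.853 in EC-like and 1.85 in macrophage-like cells. Acadl was above control in 11 of 12 types, all but T cell-like cells, and in none by 1.5-fold. Without the free RNA share its ratio was 0.953 in podocyte-like, 1.18 in T cell-like and 4.07 in PMN-like cells. The PMN-like value rests on 10 control UMIs at 1.08 times that share, which left 6.14 CPM, so it is uncertain. Acadm, the medium-chain counterpart, was below control in 11 of 12 types, all but podocyte-like cells. Without the free RNA share it was above control also in EC-like, macrophage-like and T cell-like cells, at ratios of 1.27, 1.59 and 2.85. The T cell-like value rests on 46 control UMIs at 1.11 times that share, which left 14.3 CPM, so it is uncertain.

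In macrophage-like cells, with 327 control and 617 ischemia cells, the sum of the members was nearly level at 2351 and 2336 CPM. The antibody gene Igkc was among the leading genes of this cluster, and no cluster was named B cell. At the finer resolution used above, a macrophage cluster had 288 and 577 cells and a B cell cluster 39 and 41. Some macrophage-like cells may therefore have been B cells, and their part in the ratios below was not tested. Of the 34 members, 7 were lower by 1.5-fold or more, where 11.6% of genes were, and 3 were higher, where 17.2% were. The higher ones were Plin2, from 123 CPM in control to 363 CPM in ischemia, Cd36, from 132 to 228 CPM, and Pdk4, from 5.62 to 9.08 CPM. Cd36 and Plin2 are known as genes of lipid-laden macrophages, and they were at 7.21 and 8.59 times the free RNA share in control and at 11.6 and 9.71 times in ischemia. Pdk4 was at 1.05 and 0.942 times that share, so its difference was at the level of background. Acsm2 and Etfb had the highest CPM in control, at 354 and 239 CPM, and Acsm2 was at 187 CPM in ischemia. Those lower by 1.5-fold or more were Acsl1, Acsm2, Acsm3, Ehhadh, Ppara, Ppargc1a and Slc27a2, of which all but Acsl1 and Ppargc1a were at 0.549 to 1.19 times the free RNA share in both libraries. With that share taken off, 2 of 27 members were lower and 14 higher by 1.5-fold or more, where 10.9% and 27% of genes were. Some of the 14 had little left in control, so this count is uncertain. Acaa1b, Crat and Hadh had 2.55, 6.56 and 8.08 CPM left in control, against 114 CPM for Cd36 and 109 CPM for Plin2. Acaa1b was at only 1.04 times the free RNA share in control. The sum of the macrophage markers was at a ratio of 0.694 and mitochondrial transcripts made up 9.50% and 6.66% of the UMIs, and their part in the result was not tested.

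In EC-like cells the members' sum was at 3146 CPM in control against 2274 CPM after ischemia, and 12 members were lower and 2 higher by 1.5-fold or more, where 9.94% and 6.9% of genes were. Cd36, which takes up fatty acids from the blood in the endothelium, was at 222 CPM in control against 149 CPM after ischemia, 9.40 and 6.19 times the free RNA share. Acsl1 was at 45.3 and 17.8 CPM, only 1.28 and 1.46 times the free RNA share. Acsm2 and Etfb, with the highest CPM in control, were at 521 and 328 CPM there and at 225 and 250.4 CPM in ischemia. The higher members were Plin2, from 67.3 to 118 CPM, and Pdk4, from 6.39 to 13.2 CPM, which was at 0.925 and 1.12 times the free RNA share. After the free RNA share, which was at 25.6% of the PT-like level in control and 17.9% in ischemia, was taken off, 4 of 28 members were lower and 1, Angptl4, higher, where 6.81% and 12.3% of genes were, and Plin2 was at 1.49.

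The smaller cell types held fewer members with enough UMIs. In pericyte-fibroblast-like cells 8 of 28 members were lower, where 7.22% of genes were, and Plin2 and Angptl4 were higher, where 13.1% were, with Angptl4 from 23.1 to 52.7 CPM. Without the free RNA share, 7 of 25 were lower and 1, Angptl4, higher. In podocyte-like cells 5 of 21 were lower and Plin2 and Hsd17b4 higher, where 7.34% and 7.42% of genes were. Without the free RNA share, 5 of 19 were lower and 1, Hsd17b4, higher. In PMN-like cells, with 19 cells in control and 181 in ischemia, 4 of 12 were lower and 3 higher, where 7.21% and 44.6% of genes were. Among the latter, Plin2 was at 57.5 CPM in control, from 7 UMIs, against 213 CPM after ischemia, with a ratio interval of 1.76 to 9.35. Hsd17b4, with 0 UMIs in control, where 3 counts would be 24.7 CPM, had enough UMIs through the ischemia library alone. So did Plin2, with 187 UMIs in ischemia, and Slc25a20, since the 4 carnitine genes together had only 17 UMIs in control. The filter thus favoured members high in ischemia, and the count of 3 higher is a description only. Without the free RNA share, 4 of 8 members were lower and 4 higher in PMN-like cells. The level left in control was under 24.7 CPM for Slc25a20 and Acadl, both higher, and for Etfb, which was lower. In T cell-like cells 3 of 12 were lower and none reached 1.5-fold upward, where 7.78% and 12.2% of genes did. With the free RNA share taken off, 0 of 7 were lower and 3 higher there. The higher ones were Acadm, Etfa and Ehhadh, with only 14.3, 15.8 and 8.77 CPM left in control, where 3 counts would be 9.36 CPM. For these smaller types the shares of all genes were not computed without free RNA.

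The clusters left without a name held many of the cells. Cluster 0, with 4599 control and 5842 ischemia cells and a median of 836 UMIs, had the PT-specific genes at 81.9% and 95.4% of the PT-like level. There the members' sum was at 6886 and 6116 CPM, 5 members were lower and 2 higher by 1.5-fold or more, where 5.91% and 26.2% of genes were, and Plin2 was at 58.1 and 249 CPM. In cluster 4, which scored highest on the TAL list but had none of its genes and 2 of another list among its 10 leading genes, 16 members were lower and 3 higher, where 12.4% and 19.2% of genes were. In cluster 15, which scored highest on the EC list with none of its genes among the 10 leading ones, 5 of 23 were lower and none higher, where 8.03% and 6.49% of genes were.

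Related genes of lipid metabolism, in 8 lists of 91 genes, were mostly below control in PT-like cells as well. The shares to set beside the counts of each list are 9.09% of all genes lower and 16% higher by 1.5-fold or more. Of 10 other genes of mitochondrial oxidation with enough UMIs, 3 were lower by 1.5-fold or more and none higher. The lowest were Acss1, an acetyl-CoA synthetase of mitochondria, from 123 to 59.3 CPM, and Slc22a5, the carnitine transporter, from 91.7 to 51.0 CPM, and the highest ratios were those of Mlycd at 0.957 and Acot2 at 1.021. Of 14 other peroxisomal genes 4 were lower, led by Pecr, a reductase, from 386 to 172 CPM, and Acox3, an acyl-CoA oxidase, from 52.6 to 25.4 CPM, while Pex11a and Acot8 were at 1.07 and 1.10. Of the ketone body genes, Acat1 was at a ratio of 0.688 and Oxct1 at 0.841.

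Of 6 other targets of the Ppara receptor with enough UMIs, 4 were lower by 1.5-fold or more, where 9.09% of genes were. Cyp4a14, a fatty acid hydroxylase, was at 359 CPM in control against 140.1 CPM after ischemia, a ratio of 0.391, and Creb3l3 was at 0.893 and 0.427 CPM. Vnn1 was at a ratio of 0.788 and Acot1 at 1.04. Fgf21 had 2 UMIs in control and 33 in ischemia, under the 50 needed, so it was not counted. Of 10 other regulators, Esrra, a nuclear receptor that works with the coactivator encoded by Ppargc1a, was at 59.1 and 39.0 CPM, a ratio of 0.660, and Hnf4a at a ratio of 0.705. Nrip1 was at 1.13, and Pparg was at 0.237 and 0.912 CPM from 17 and 62 UMIs, the only regulator higher by 1.5-fold.

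Droplet and lipolysis genes other than Plin2 did not move together. Of 14 with enough UMIs, 2 were lower and 2 higher by 1.5-fold or more, where 9.09% and 16% of genes were. Plin3, another perilipin, was at 33.2 CPM in control against 60.9 CPM after ischemia, and Hilpda, an inhibitor of triglyceride lipase, at 1.30 and 2.74 CPM. Fitm1, which helps droplets to form, was at 35.8 and 20.0 CPM, and the hormone-sensitive lipase gene Lipe at 10.1 and 6.21 CPM. Of 11 genes of fatty acid synthesis 3 were lower, with the desaturase genes Scd1 and Scd2 at ratios of 0.247 and 0.311, both under 4 CPM, and Elovl1 and the citrate lyase gene Acly at 1.12 and 1.33. Of 14 other uptake and binding genes 5 were lower and 3 higher. Of the binding protein genes, Fabp1 went from 18.9 to 8.87 CPM, Fabp5 from 3.06 to 1.75 CPM and Fabp4 from 3.27 to 5.56 CPM. The activating enzyme gene Acsl5 went from 7.38 to 14.1 CPM. Dbi, the remaining higher gene and the one with the highest CPM of this list, went from 2700 to 4065 CPM, a ratio of 1.51.

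The promoters of the members were searched for the direct repeat bound by the Ppara receptor with its partner, known as DR1, on both strands. Windows from 250 bases before to 50 after the start were found for 29 of the 34 members in RefSeq's table (GRCm38). None of the 29 held the element, which was in 0.381% of all 32851 windows. The element of estrogen-related receptors, TNAAGGTCA, was added afterwards and was in none of the 29 and in 1.28% of all windows. With elements this rare, a search of 29 members was likely to find none. It does not show that the members lack such elements. Decr1, Acaa2, Angptl4, Hsd17b4 and Crat were not searched.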

How the data were processed

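Single-cell suspensions of the 2 kidneys were processed with a 10x 3' kit, and the counts the authors deposited are UMIs for each gene in each barcode, made with Cell Ranger 7.0.0 against the mm10 genome. Cells were kept if they had 200 genes or more, between 500 and 150000 UMIs, and a mitochondrial share of 55% or less. The libraries were integrated in Seurat 5.3.0 (R 4.3.3) with 2000 variable genes, 30 components and a resolution of 0.3, leaving out 125 lipid genes. Clusters were named from marker lists, and no cells were removed as doublets, because the caller marked 0 cells. Counts were summed per library and cell type and scaled to CPM, with exact Poisson intervals for levels and exact conditional intervals for ratios (scipy 1.17.1), at 95%. With 1 library per condition no p-values were computed. Genes with at least 50 UMIs over both libraries were counted as lower or higher at 1.5-fold. Named in the text were all members in PT-like cells, elsewhere examples from those past 1.5-fold and the 3 with the highest CPM, and for each related list the lowest and highest ratios, except that some results on ketone body genes are not reported here. Of the uptake and binding list, Dbi was named in addition, and of the list of Ppara targets, Fgf21. The members and lists were chosen with earlier results of these data known. The scripts were tested on simulated data.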

Additional observations from a re-analysis of the deposited data

How the results depend on the processing

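The ratio of the members' summed CPM in PT-like cells, 0.793, stayed below 1 under each alternative run. It was 0.739 with at most 25% mitochondrial UMIs, 0.786 with at least 1000 UMIs per cell, 0.784 without integration, 0.865 at resolution 0.6, 0.789 without the 8% of cells that scored highest as doublets, 0.752 when scaled to UMIs without mitochondrial genes, 0.734 when scaled to a median ratio of 1, 0.797 with cells thinned to 1000 UMIs and 0.799 with the control library's mix of clusters. Among alternatives chosen after seeing the data, it was 0.786, 0.838 and 0.763 without PT-like clusters 1, 2 and 5, 0.902 without the 3 members with the most UMIs, and 0.795 at resolution 0.6 when clusters that scored highest on the PT list but had no name were counted as PT-like. The count of members lower by 1.5-fold or more, 5, was 8 with at most 25% mitochondrial UMIs, 8 when scaled to a median ratio of 1 and 1 at a criterion of 2-fold. The other counts were within 1.5 times those reported. No member past 1.5-fold turned direction. Over 18 settings 26 of 34 members kept their direction, and those that turned at least once were Acads, Acadvl, Angptl4, Echs1, Eci1, Hadha, Hadhb and Hsd17b4. The causes were not tested. No paired analysis was possible because there was 1 library per condition, so no replicate could be left out either, and depth limits only counting error.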
